A study of Mus musculus with 26 samples.

Results

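The nuclear-encoded subunit genes of oxidative phosphorylation were examined in sorted leukemia-specific CD8+ T cells. The members were the protein-coding genes whose GENCODE symbol begins with Nduf followed by a, b, c, s or v and a digit, with Uqcr, with Cox and a digit from 4 to 8, or with Atp5. The rule found 81 genes under 80 symbols among 35865 genes with a transcript in the files, and did not use any measured value. By name, 37 belonged to complex I, 8 to complex III, 18 to complex IV and 18 to complex V. A further 11 matching symbols were not protein-coding and were left out. The symbol Atp5o stands for 2 loci, and the second (ENSMUSG00000116933.1) is called Atp5o-readthrough here.

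Oxidative phosphorylation is carried out in the inner mitochondrial membrane. Complex I takes electrons from NADH, complex II from succinate, complex III passes them to cytochrome c, complex IV hands them to oxygen, and complex V, the ATP synthase, uses the resulting proton gradient to make ATP. Complexes I, III, IV and V are mosaics of proteins made from nuclear genes, which are imported, and of a small number encoded in mitochondrial DNA. Naive T cells rest on oxidative metabolism, and activated T cells enlarge their mitochondria while they also increase glycolysis.

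The cells were TCRTg101, CD8+ T cells from mice that carry a transgenic receptor for an antigen of the C1498 leukemia on a Rag2-/- background, so that they form a single clone. GEO's labels give C57BL/6 strain, wild type genotype and an age of 6 week old for every sample, the receptor transgene aside. Donor cells were transferred into mice that received C1498 cells a day later, and were recovered from spleen or liver by FACS before low-input RNA sequencing. The design asks how the cells change with time in the leukemic host and whether liver and spleen differ.

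Controls were naive spleen cells of day 0 (controls 1 and 2) and spleen cells of a host without leukemia at day 18 (control 3). Leukemia-bearing hosts gave undivided cells that kept their CTV dye (CTVhi) from spleen at day 18 (1 library), spleen cells of day 7 (spleen early, 2 libraries) and day 14 (spleen mid, 1 library), and liver cells of day 7 (liver early, 2 libraries), of days 13, 13 and 14 (liver mid, 3 libraries) and of days 18 and 16 (liver late, 2 libraries). Every mid and late liver library came from liver and every control from spleen, so leukemia and tissue cannot be told apart in those comparisons. Controls 1 and 2 were day 0 cells, so against them time in a host cannot be told apart from leukemia either. In these bulk libraries, fewer cells that express a gene and less RNA of it per cell cannot be told apart either.

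The libraries held between 22918996 and 71358287 estimated counts. Their titles fall into a TG series (control 1, liver mid 1 and liver late 1, and an oligo-dT library of day 0 cells) and an XC series (all others), which differed widely, and the main model carries the series as a term. The 13 mitochondrially encoded subunit genes together took 1.70% of counts in the TG control and 0.597% and 0.673% in the XC controls. The 8 CD8 T cell markers (Cd8a, Cd8b1, Cd3e, Cd3g, Cd3d, Cd2, Lck, Thy1) summed to between 5201 and 9168 CPM (counts scaled to a common library size) in 13 of the 14 low-input libraries and to 3940 CPM in liver early 1, whereas Cd4 stayed at or under 5.34 CPM. Hemoglobin and other erythroid markers stood at 5226, 20334 and 136 CPM in controls 1, 2 and 3, and red cell RNA was thus most abundant in the day 0 controls.

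The promoter stretches below show motifs that respiratory genes are known for. Nuclear respiratory factor 1 (NRF1, searched as GCGCANGCG), the GA-binding protein of the ETS family (GABPA, searched as CCGGAAG) and YY1 (searched as AAGATGGCG) are textbook regulators of nuclear genes for mitochondrial proteins. RefSeq windows of 250 bases before to 50 after each gene's start, build GRCm38.p6, matched 65 of the 80 member symbols, and both strands were searched. NRF1 letters stood in 18 of 65 members (27.7%) against 7.03% of 27025 genes with a window. GABPA letters stood in 14 (21.5%) against 9.93%, and YY1 letters in 7 (10.8%) against 1.64%. As a comparison, the CACGTG box stood in 9.23% of members and 8.09% of genes, and CCAAT in 43.1% and 41.1%, and motif matches can overlap. The stretches were chosen to show 1 to 3 matches in members of each complex. They run from 20 bases before the first match to 20 after the last, within the bases before the start, on the gene's own strand, with the matched letters in capitals.
Cox6a1 (NRF1, NRF1 and GABPA letters, chr5:115348959-115349140, minus strand): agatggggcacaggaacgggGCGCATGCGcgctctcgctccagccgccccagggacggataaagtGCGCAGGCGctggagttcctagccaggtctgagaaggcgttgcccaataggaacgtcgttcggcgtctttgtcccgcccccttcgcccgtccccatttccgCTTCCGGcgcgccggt
Uqcr11 (GABPA letters, chr10:80406861-80406907, minus strand): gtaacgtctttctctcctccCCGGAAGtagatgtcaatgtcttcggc
Ndufb7 (GABPA letters, chr8:83566718-83566757, plus strand): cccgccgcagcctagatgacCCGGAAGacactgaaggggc
Atp5j (YY1 and GABPA letters, chr16:84835011-84835084, minus strand): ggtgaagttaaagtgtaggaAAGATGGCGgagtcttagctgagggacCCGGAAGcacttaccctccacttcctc
Ndufb4 (NRF1 letters at 3 positions, chr16:37654369-37654579, minus strand): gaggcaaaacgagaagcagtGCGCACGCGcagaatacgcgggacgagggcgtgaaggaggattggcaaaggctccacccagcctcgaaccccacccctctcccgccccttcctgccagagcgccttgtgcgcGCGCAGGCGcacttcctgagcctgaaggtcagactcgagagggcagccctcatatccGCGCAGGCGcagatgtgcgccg
The first 4 genes rose in mid and late liver cells, as given below for each complex, while Ndufb4, with the most NRF1 matches of the 5, did not pass the test. A match describes the letters only, and no window says whether a factor was bound.

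Nuclear-encoded subunit genes of all 4 complexes were higher in mid and late liver cells than in controls, by a median of 0.95 on the log2 scale (1.93-fold). The median over all 14600 genes tested was -0.05, which TMM scaling holds near 0. A gene was tested with 10 or more counts in at least 6 of 11 libraries, which 76 members reached, 73 of them in every library. Of the 76, 65 were higher and 0 were lower, where 23.5% of all genes tested were higher and 23.8% lower (edgeR quasi-likelihood test with the series as a term, Benjamini-Hochberg adjusted p under 0.05). Complex III had 8 of 8 members higher (median 0.93). Complex I had 30 of 36 higher (median 0.86), complex IV 11 of 14 (median 1.13) and complex V 16 of 18 (median 0.96). The 11 of complex IV, and so the 65, include Cox7a1, which reached 10 counts in only 1 control. It had to be higher in liver to be tested, so its call is no support. With library totals in place of TMM factors the median of all genes moved to -0.30, with 2366 genes higher and 4771 lower in place of 3426 and 3479, and 51 members were higher and 1, Cox7a2l, was lower. These calls rest on control 1, the lone TG control. Without it 0 members and 6 of all genes were called, with a median of 0.75 over the members and 47 of them at an unadjusted p under 0.05.

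**Figure D1:**
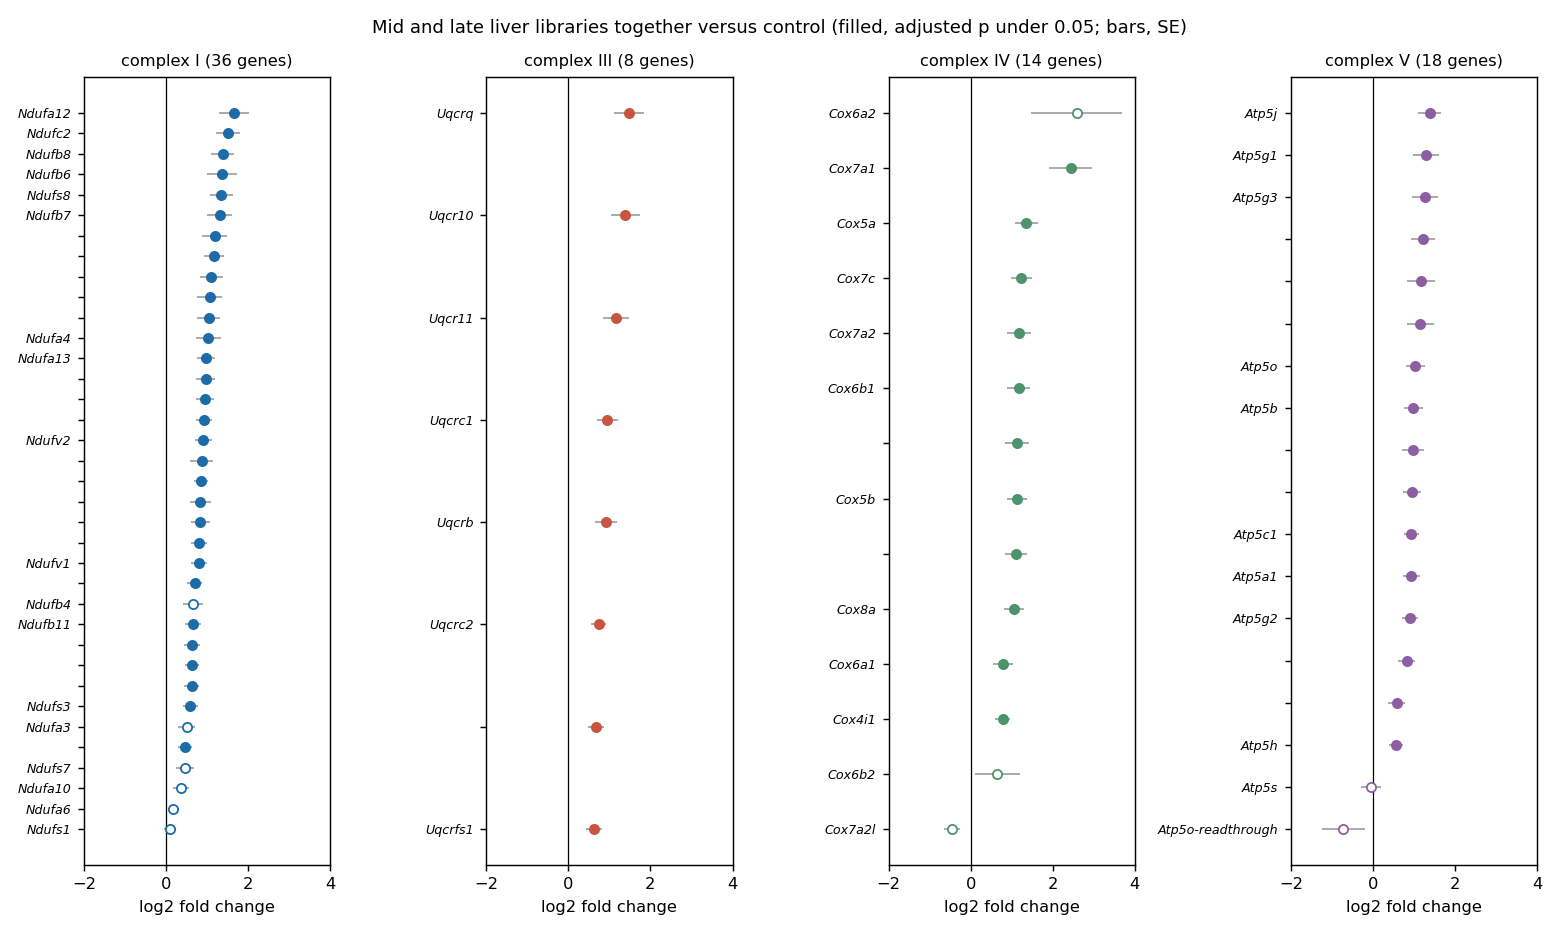
Log2 fold change of each tested subunit gene between the 5 mid and late liver libraries and the 3 controls (x axis), with its standard error as a bar, in a panel for each complex. Filled points passed an adjusted p of 0.05, and genes named in the text are labelled. Complex III is filled throughout, and Cox7a2l, Atp5s and Atp5o-readthrough are the members left of 0.

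Both series showed the same direction at different size. Against the mean of the controls of its own series, the median member stood at 1.30 and 1.48 (log2) in the TG mid and late liver libraries, and at 0.57, 0.82 and 0.87 in XC liver mid 2, liver mid 3 and liver late 2. Over all tested genes the same medians lay between -0.07 and 0.00. In both series at once, 69 of 76 members had every mid and late library above every control of that series, against 28.6% of all genes tested. Across series the ranges overlapped more, and 22 members had all 5 mid and late libraries above all 3 controls, against 19.6% of all genes. The change in the XC series lay below that in the TG series for 72 of 76 members (median difference -0.66). Over all genes 6898 of 14600 did so (median 0.04). In the test of that difference 0 members and 0 genes passed (smallest adjusted p of a member 0.84, edgeR quasi-likelihood test of the interaction). At an unadjusted p under 0.05 stood 4 of 76 members and 789 of 14600 genes. Within the XC series alone, where 3 libraries meet 2 controls, 0 of 74 members and 0 genes at large passed, with 32 members at an unadjusted p under 0.05 and a median of 0.75. When the series term was left out, 14 members passed as higher, where 14.3% of all genes were higher and 14.7% lower.

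**Figure D2:**
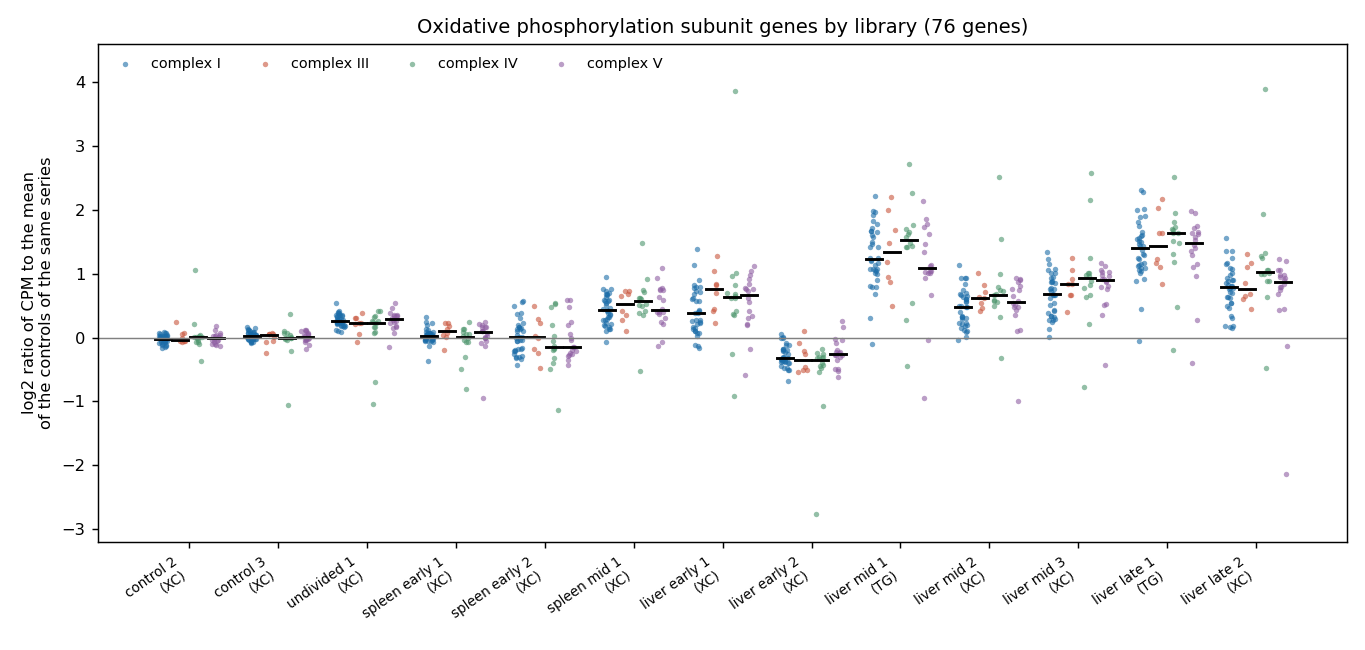
Each point is a subunit gene in a library (x axis, series in brackets), as the log2 ratio of its CPM to the mean of the controls of the same series (y axis), and black bars are medians for each complex. Control 1 is its own reference and is not drawn. The medians of the mid and late liver libraries lie above 0 in every complex. Those of spleen mid and liver early 1 also lie above 0, and those of liver early 2 lie below 0. Some single genes lie on the other side of 0.

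As a share of the library, the 81 members took 1.13% of counts in the TG control and 2.23% and 2.20% in the TG mid and late liver libraries. In the XC series they took 0.737% and 0.809% in the controls and 1.04%, 1.18% and 1.21% in liver mid 2, liver mid 3 and liver late 2. Within each series every mid and late liver library was above its controls. On the TPM scale (transcripts scaled to a fixed library sum), which corrects for transcript length, the summed members went from 13733 in the TG control to 29730 and 25932, and from 10010 and 11617 in the XC controls to 15383, 17246 and 17389.

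The rise was called at both stages in the liver. Both comparisons share their controls. At days 13 and 14, 49 members were higher than in controls and 0 lower (median 0.87; all genes, 17.3% higher and 13.9% lower), and at days 16 and 18, 62 were higher and 0 lower (median 1.06; all genes, 19.8% and 17.7%). Late less mid gave a median of 0.18, with 71 of 76 members above 0, where 7541 of 14600 genes were (median 0.01). By edgeR 0 members and 0% of all genes passed, and DESeq2 also called 0 members. At an unadjusted p under 0.05 (edgeR) stood 0 members and 780 of 14600 genes. Both counts against control are fragile, since 0 members were called at mid without control 1, control 2, liver mid 1 or liver mid 3, and at late without control 1, liver late 1 or liver late 2. Without control 3 the mid count was 18 (all genes, 8.78% higher and 7.67% lower), and without control 2 the late count was 32 (all genes, 12.3% and 11.4%).

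The catalytic core subunits of complex I hold the flavin and iron-sulfur clusters that carry electrons from NADH to ubiquinone, and they did not move as a block. Ndufs8, an iron-sulfur subunit near the quinone site, stood at 122, 63.5 and 66.5 CPM in controls 1 to 3, at 418, 124 and 137 CPM in liver mid 1 to 3 and at 453 and 154 CPM in liver late 1 and 2. Every mid and late library was above the control of its series, and the rise was 1.34 ± 0.28 (SE; adjusted p = 0.0081, edgeR). Ndufv2, Ndufv1 and Ndufs3 rose as well, by 0.91, 0.80 and 0.60. Ndufs1 (ENSMUSG00000025968.16, chr1:63143596-63176833 of GRCm38, the build of all gene positions here), the largest core subunit, stood at 88.3, 103 and 104 CPM in controls, at 82.1, 114 and 131 CPM in liver mid and at 85.3 and 118 CPM in liver late. These ranges overlap, and the difference was 0.09 ± 0.14 (adjusted p = 0.61, edgeR). Ndufs7, the subunit with the last iron-sulfur cluster, gave 0.46 ± 0.22 (adjusted p = 0.11), with 208 CPM in the TG control and 460.2 and 429 CPM in its mid and late liver, but 107 and 126 CPM in XC controls and 134, 128 and 132 CPM in XC mid and late liver. Its series difference did not pass (unadjusted p = 0.022, adjusted p = 0.84, edgeR interaction).

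The 29 tested accessory subunits of complex I give the enzyme its shell. Ndufa12 (ENSMUSG00000020022.17, chr10:94198720-94221443), a subunit of the NADH-binding arm, had the largest rise of the complex, from 51.2, 34.2 and 34.0 CPM in controls to 238, 75.1 and 86.1 CPM in liver mid and 248 and 101 CPM in liver late, by 1.66 ± 0.37 (adjusted p = 0.0097, edgeR). All 5 mid and late libraries lay above all controls. Ndufc2, in the membrane arm, followed with 1.52 ± 0.29, from 48.1, 46.7 and 53.4 CPM to between 94.9 and 240.3 CPM, again without overlap. Ndufb8, also in the membrane arm, rose by 1.38 and Ndufb7, whose promoter stretch is shown above, by 1.30. Ndufa4 had the highest mean per length of complex I over the 11 libraries (272 TPM), though not in the controls alone, where it stood at 187 TPM and Ndufs7 at 199 TPM. It rose by 1.03, and its product is now usually counted with complex IV. Ndufa3, Ndufa6, Ndufa10 and Ndufb4 did not pass, with differences of 0.50, 0.18, 0.37 and 0.66. Ndufa4l2, a paralogue known from hypoxia, was not tested, with 19 counts in all over 14 libraries.

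**Figure D3:**
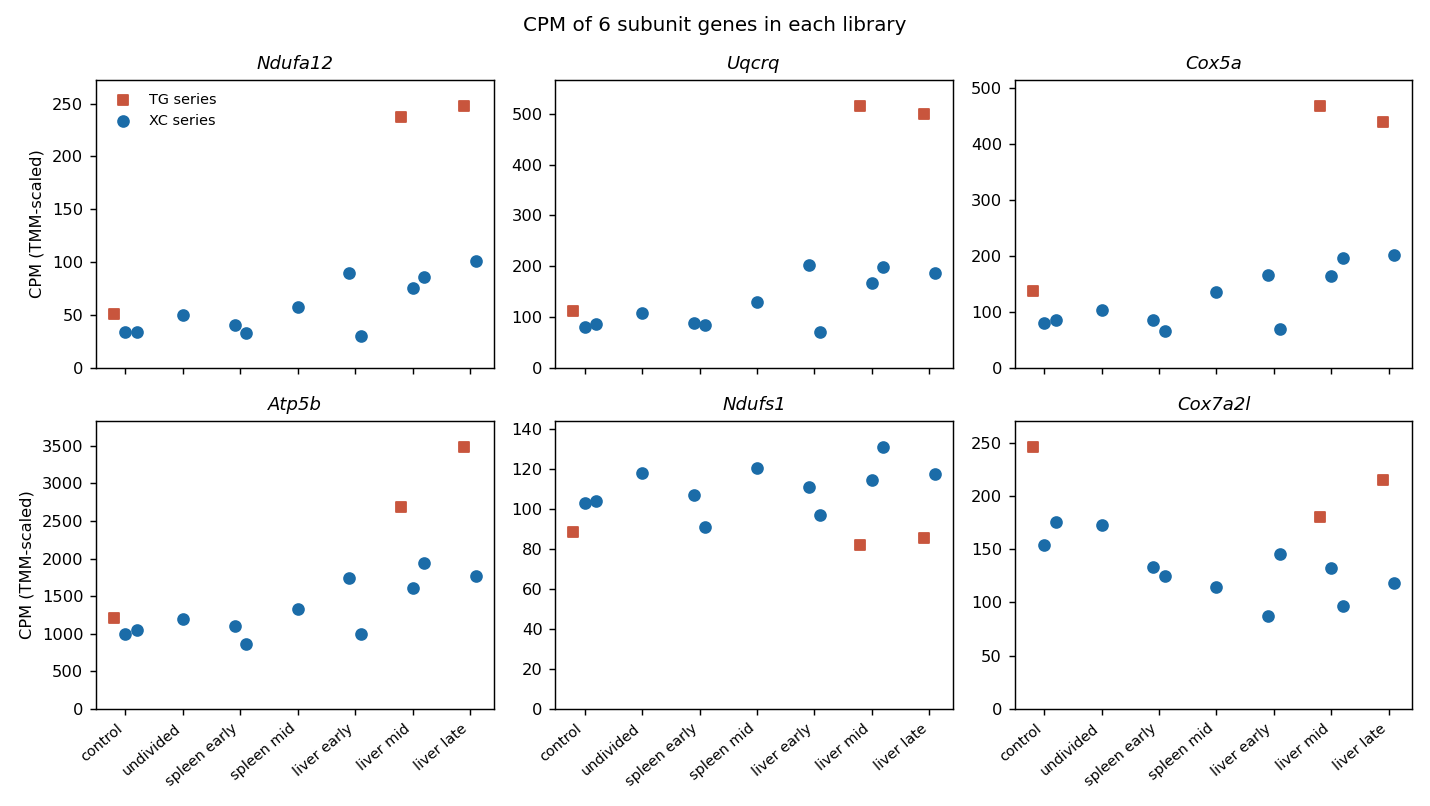
CPM, scaled by TMM factors, of 6 subunit genes in each library by group (x axis), with squares for the TG series and circles for the XC series. Ndufa12, Uqcrq, Cox5a and Atp5b are higher in mid and late liver within each series, Ndufs1 overlaps between groups, and Cox7a2l lies lower within each series.

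All 8 members of complex III rose, by 0.63 to 1.48. Uqcrq (ENSMUSG00000044894.14, chr11:53427922-53430831), a small subunit that binds ubiquinone, was the highest per length (mean of 499 TPM) and moved most. It stood at 112, 80.4 and 86.3 CPM in controls, at 516, 167 and 198 CPM in liver mid and at 499.8 and 187 CPM in liver late, with no overlap between the groups and a rise of 1.48 ± 0.37 (adjusted p = 0.014, edgeR). Uqcrfs1, the Rieske iron-sulfur protein that passes electrons towards cytochrome c1, moved least, from 133, 138 and 98.0 CPM to 188, 169 and 185 CPM in liver mid and 239.7 and 186 CPM in liver late, by 0.63 ± 0.20 (adjusted p = 0.029). Its groups did not overlap either. The core proteins Uqcrc1 and Uqcrc2 rose by 0.95 and 0.74, and Uqcr10 and Uqcr11 by 1.39 and 1.15.

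The nuclear subunits of complex IV surround a catalytic core made from mitochondrial DNA. Cox5a (ENSMUSG00000000088.7, chr9:57521274-57532426) stood at 137, 80.2 and 84.8 CPM in controls, at 468, 165 and 197 CPM in liver mid and at 439.7 and 201 CPM in liver late, a rise of 1.36 ± 0.29 (adjusted p = 0.0083, edgeR) with no overlap. Cox8a was the highest member of the complex per length, with a mean of 682 TPM, and rose by 1.06 ± 0.25, from 311, 194 and 215 CPM to between 303 and 1031 CPM. Cox5b rose by 1.12, Cox7c by 1.24, Cox6b1 by 1.17 and Cox4i1, the subunit with a regulatory ATP site, by 0.78. Cox6a1, whose promoter stretch holds NRF1 and GABPA letters, rose by 0.80.

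Several complex IV subunits come as isoform pairs, and the ubiquitous form dominated in each. Cox4i2, the lung form, was not tested, with 20 of its 47 counts in control 1, and Cox8b, Cox8c and Cox7b2 had 8, 10 and 7 counts in all 14 libraries. Cox7a1, the heart and muscle form, had the largest fold of the members that passed (2.43 ± 0.52, adjusted p = 0.0086, edgeR) at a very low level, from 0.314, 0.0976 and 0.195 CPM in controls to between 0.508 and 2.36 CPM in mid and late liver. It reached the filter with 10 counts or more in 7 of 11 libraries, 1 of them a control, and so had to be higher in liver to be tested at all. Its partner Cox7a2 rose by 1.18 from 93.2 ± 28.6 CPM (SD, n = 3). Cox6a2, the muscle partner of Cox6a1, gave 2.58 ± 1.11 without passing (adjusted p = 0.089), and it also stood at 2.49 CPM in liver early 1. Cox6b2, the testis form, gave 0.65 ± 0.55 (adjusted p = 0.35). Of these pairs, the ubiquitous forms alone were present at more than 10 CPM.

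Cox7a2l (ENSMUSG00000024248.14, chr17:83501918-83517330) stood apart. Its product is described as a factor that joins complexes III and IV into supercomplexes. Whether it does so in the mouse strain used here was not tested, and RNA counts cannot show it. Cox7a2l stood at 246, 154 and 176 CPM in controls. In liver mid it stood at 180.4, 132 and 96.4 CPM, and in liver late at 215 and 118 CPM. Within each series every mid and late liver library was below every control, and the difference was -0.45 ± 0.20 without passing (adjusted p = 0.093, edgeR). It passed as lower under 3 of 19 other settings, with library totals alone, without the liver early libraries, and after the trend with transcript length was removed. Over these 19 settings its difference lay between -0.81 and -0.35. The spleen libraries of leukemia-bearing hosts were also low, with 133 and 125 CPM at day 7 and 115 CPM at day 14, against 173 CPM in undivided cells.

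Atp5b (ENSMUSG00000025393.12, chr10:128083273-128090391), the catalytic beta subunit of complex V, was the highest of all members per length, with an average of 1054 TPM. It stood at 1214, 1001 and 1055 CPM in controls, at 2683, 1614 and 1936 CPM in liver mid and at 3484 and 1773 CPM in liver late, with no overlap and a rise of 0.98 ± 0.23 (adjusted p = 0.010, edgeR). Its alpha partner Atp5a1 rose by 0.93 and the gamma subunit Atp5c1, the rotating shaft, by 0.94. Atp5j, coupling factor 6 of the stalk, rose most in the complex, from 160.2, 96.6 and 99.0 CPM to between 186 and 619.8 CPM, by 1.38 ± 0.28. Atp5h, the stalk subunit d, rose least among those that passed with 0.56 ± 0.17 (adjusted p = 0.027), from 235, 172 and 180.2 CPM to 374, 225, 251, 459 and 237 CPM. In Atp5h 1 of the XC values lies within the range of the controls, unlike in Atp5j.

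The membrane ring of the synthase is built from copies of subunit c, and 3 genes encode the same mature protein. Atp5g1, Atp5g2 and Atp5g3 rose by 1.30, 0.90 and 1.26. Atp5g3 was the highest, with 329, 155 and 154 CPM in controls and 1013, 270.4 and 336 CPM in liver mid. Atp5s, a coupling factor that is no structural subunit, gave -0.05 ± 0.24, with 6.33 to 7.63 CPM in controls and 5.04 to 9.25 CPM in mid and late liver. Atp5o-readthrough gave -0.72 ± 0.53 at 0.822 to 5.51 CPM, and 94.0% of its 31-base words also occur in other genes, so its reads cannot be placed with certainty. The same holds in part for Atp5o (49.6% of words shared), Atp5g2 (40.2%), Uqcrb (34.8%), Ndufb6 (34.4%), Ndufa13 (33.2%) and Ndufb11 (29.0%), against a median of 4.98% over the members.

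Subunits of the same complexes that are encoded in mitochondrial DNA were not called with the nuclear ones. Of the 13, 0 passed in mid and late liver by edgeR and 0 by DESeq2. By edgeR 1 had an unadjusted p under 0.05, where 8197 of 14600 genes did. Their differences ran from -0.46 (mt-Nd2) to 0.18 (mt-Cytb) with a median of -0.10, and the smallest adjusted p was 0.062 for mt-Atp6 (-0.37 ± 0.14, edgeR). Calls appeared under 4 other settings, all of them lower. They were 2 of the 13 with library totals alone (differences from -0.69 to -0.06), 2 with the transcript length trend removed (-0.83 to 0.05), 1 with the first run only and 1 with both liver early libraries left out. As summed CPM, the nuclear members stood at 2.49 and 2.76 times the TG control in TG liver mid and late, and at 1.47, 1.71 and 1.76 times the XC control mean in liver mid 2, liver mid 3 and liver late 2. The mitochondrial genes stood at 0.929 and 0.896 times in the TG libraries and at 1.22, 0.814 and 1.18 times in the XC libraries. The ratio of nuclear to mitochondrial CPM was 0.666, 1.23 and 1.20 in controls 1 to 3 and between 1.47 and 2.56 in mid and late liver, with no overlap.

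**Figure D4:**
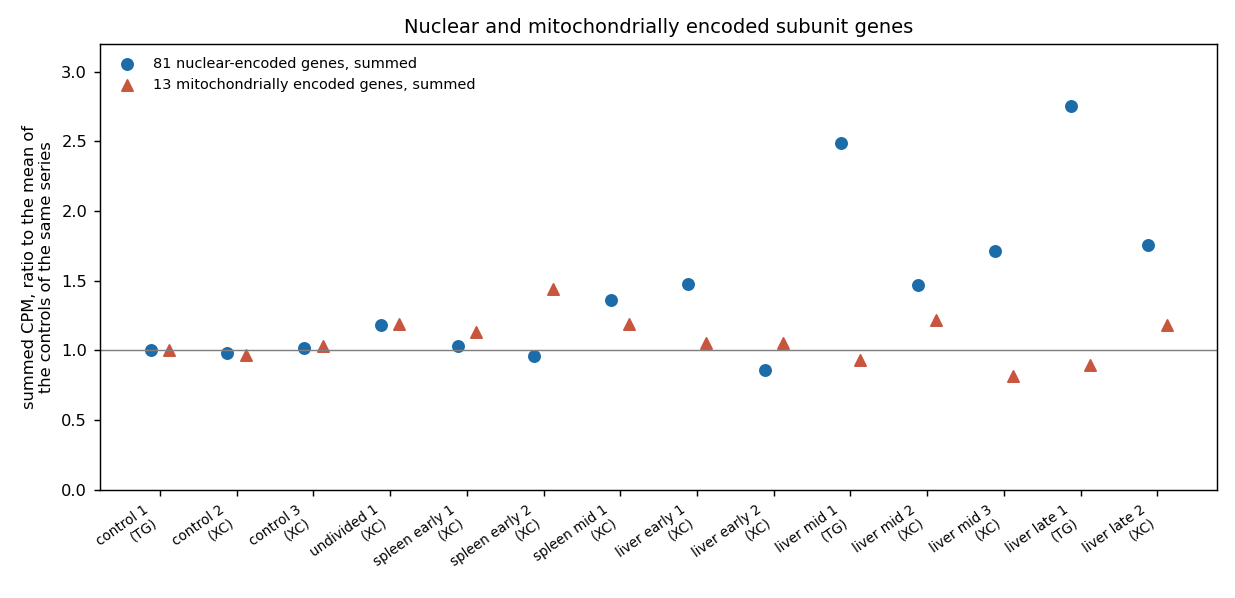
Summed CPM of the 81 nuclear-encoded members (circles) and of the 13 mitochondrially encoded subunit genes (triangles) in each library (x axis), as a ratio to the mean of the controls of the same series (y axis). The circles reach 2.76 in liver late 1 while no triangle of a mid or late liver library exceeds 1.22.

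Genes that work beside these complexes, or are subunits that the symbol rule does not match, differed among themselves. Their counts are to be read against 23.5% of all genes higher and 23.8% lower. Complex II, which is wholly nuclear, had Sdhb, Sdhc and Sdhd higher (1.19, 0.83 and 0.99), while Sdha, its large flavoprotein, gave 0.07 ± 0.14 (adjusted p = 0.71, edgeR), much as Ndufs1 did in complex I. Cytochrome c (Cycs) rose by 1.12. Cytochrome c1 (Cyc1), a complex III subunit that the symbol rule does not match, rose by 0.87 (adjusted p = 0.029, edgeR). It did not pass at mid or late alone (adjusted p = 0.062 and 0.051, edgeR). Of the assembly factors, 5 of 14 for complex I were higher, 2 of 6 for complex III with 1 lower, 9 of 20 tested for complex IV and 2 of 3 for complex V, with medians of 0.55, 0.23, 0.44 and 0.54. The numbers higher for complexes I and III are small and lie near the share of all genes. The copper carriers and chaperones of complex IV assembly Cox17 and Cmc2 rose by 1.46 and 1.82, Uqcc2 by 1.47 and Ndufaf2 and Ndufaf6 by 1.25 and 1.27, whereas Lyrm7, which guides the Rieske protein, fell by 0.92 (adjusted p = 0.021, edgeR).

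Of the tricarboxylic acid cycle genes, 9 of 13 were higher and 0 lower, led by fumarase (Fh1, 1.54), malate dehydrogenase (Mdh2, 1.16) and Idh3a (1.02). Ogdh, Dlst and Suclg2 gave 0.01, -0.13 and -0.36 and did not pass. Among 14 factors of mitochondrial biogenesis, 1 was higher, Gabpb1 (0.86 ± 0.17, adjusted p = 0.0074, edgeR), and 1 was lower, the coactivator Ppargc1b, which fell by 1.32 ± 0.18 (adjusted p = 0.0053). Ppargc1a gave -1.21 ± 0.50 (adjusted p = 0.072), and Nrf1, Gabpa, Yy1, Esrra and Tfam gave 0.01, 0.05, -0.03, 0.00 and 0.31 without passing. All 8 proliferation genes were higher, from 1.56 for Pcna to 5.38 for Cdk1, in the same libraries as the members.

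At day 7 the liver gave no common answer. Liver early 1 had a median member at 0.56 above the XC controls, with 68 of 76 members above both of them, where 39.5% of all genes were. Liver early 2 stood at -0.31, with 65 of 76 members below both, where 32.2% of all genes were. Over all genes the medians were -0.03 and 0.01. Cox5a shows it, with 166 CPM in liver early 1 and 68.9 CPM in liver early 2, on either side of 80.2 and 84.8 CPM in the XC controls. Together they gave a median of 0.29 against controls, with 0 members and 0% of all genes called by edgeR and 0 members called by DESeq2. At an unadjusted p under 0.05 (edgeR) stood 2 of 76 members and 1493 of 14600 genes. Without liver early 2, 20 members were called higher and 1 lower (median 0.62), where 9.64% of all genes were higher and 3.61% lower. Without liver early 1, 0 members were called, where 0% of all genes were higher and 0.00704% lower. In each case 1 early liver library is left, which is assumed to vary like the other groups.

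In the spleen of leukemia-bearing hosts, day 7 cells lay close to the XC controls, with median members at 0.03 and -0.04 in the 2 libraries. Against all controls the fit over 14 libraries gave a median of 0.13 with 0 members and 0% of 15449 genes called (edgeR; 0 members at an unadjusted p under 0.05, and 0 by DESeq2). The single day 14 spleen library stood higher, with a median of 0.46 and 70 of 76 members above both XC controls, where 39.9% of all genes were. Uqcrq, for example, stood at 130.2 CPM in spleen mid, against 80.4 and 86.3 CPM in the XC controls and 167 and 198 CPM in XC liver mid. The liver less spleen difference was 0.14 at day 7, with 0 members and 0% of genes called (edgeR). At an unadjusted p under 0.05 stood 1 of 76 members and 1391 of 15449 genes. At days 13 and 14 the difference was 0.26, with 0 members and 0.00647% of genes called and 0 members at an unadjusted p under 0.05. DESeq2 called 0 members in each. Without liver early 2, 5 members were called higher in liver at day 7, where 4.98% of all genes were higher and 1.37% lower, and the lone liver library is again assumed to vary like the other groups.

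Undivided CTVhi cells, from the spleen of a leukemic host at day 18, had a median member at 0.25 above the XC controls and 69 of 76 members above both of them, where 36.4% of all genes were. The shift was small in each gene, as for Atp5b with 1199 CPM against 1001 and 1055 CPM. The group holds 1 library, and 0 members and 0% of genes passed against control (edgeR; 0 members at an unadjusted p under 0.05, and 0 by DESeq2). Late liver cells stood above undivided cells by a median of 0.70, in 71 of 76 members, where 7391 of 14600 genes stood above. By edgeR 0 members and 0% of genes were called, and DESeq2 called 0 members. At an unadjusted p under 0.05 (edgeR) stood 9 of 76 members and 3782 of 14600 genes.

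Other cell types and transcript length moved with the main comparison. Hepatocyte markers (10 genes, 6 tested, 4 higher and 0 lower) summed to 1.62 to 319 CPM in controls. Trf alone stood at 319 and 21.9 CPM in controls 1 and 2. In mid and late liver the markers summed to 3.98 to 428 CPM. A marker near 0 in controls, as Alb was, reached the filter only through liver libraries. It had to be higher there to be tested, so such a call is no support. Alb, the defining gene, was at or under 0.03 CPM in controls and at 85.8, 8.48, 0.91, 132 and 24.4 CPM in liver mid 1 to 3 and liver late 1 and 2. In these 5 libraries, in the same order, the median member stood at 1.30, 0.57, 0.82, 1.48 and 0.87. Erythroid (5 of 5 tested), myeloid and Kupffer (5 of 7) and neutrophil markers (2 of 3) were lower in mid and late liver. Their sums ran from 136 to 20334, 12.4 to 955 and 9.08 to 158 CPM in controls and from 5.58 to 215, 12.3 to 55.6 and 0.508 to 2.44 CPM in mid and late liver. Controls 2 and 3 differed 149-fold in erythroid CPM, and their median members lay at -0.01 and 0.01 against the mean of both. B cell (2 of 3 tested) and endothelial markers (1 of 2) were lower too, with sums of 20.7 to 33.2 and 128 to 166 CPM in controls and 11.7 to 44.2 and 66.2 to 146 CPM in mid and late liver. Of the CD8 T cell markers 1 of 8 was higher and 0 were lower. Apart from these values, their part in the result was not tested.

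Members are short, with a median transcript length of 645 nt against 2043 nt for all tested genes, and short genes were higher at large. Length and log2 fold change had a Spearman correlation of -0.26 over 14600 genes and -0.31 over the 76 members, where all points share the same libraries. Among the 1460 shortest genes, which held 56 members, the median was 0.29 over all genes and 1.06 over the members. When each library's trend with length was removed, 55 members were higher and 1 lower, with a median of 0.65, where 23.8% of all genes were higher and 20.4% lower.

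**Figure D5:**
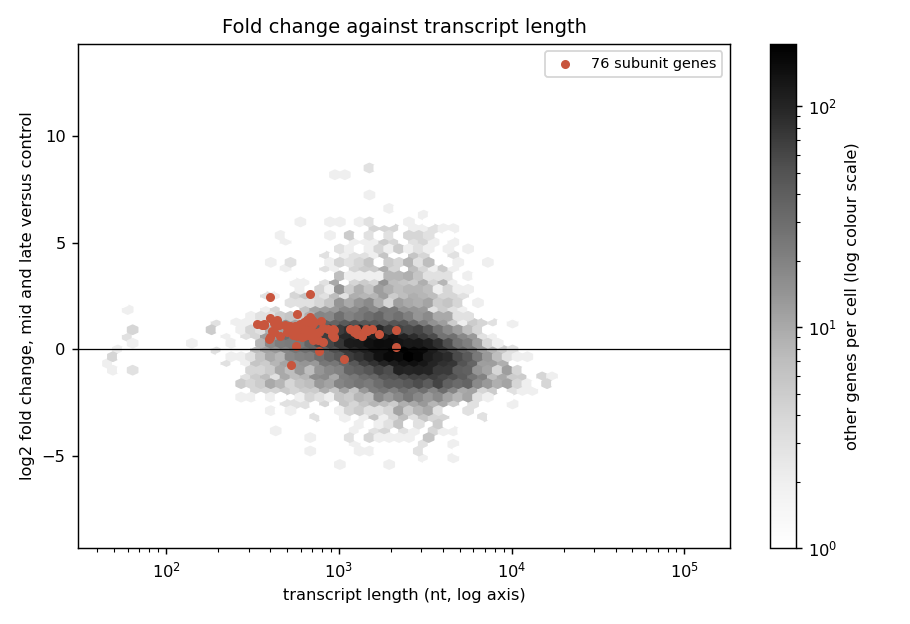
Log2 fold change of mid and late liver against control (y axis) by transcript length (x axis, log scale), with 76 subunit genes as points and all other tested genes as shaded cells. The members sit at the short end and mostly above genes of their own length.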

How the data were processed

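RNA was measured in 15 libraries sequenced in 26 runs. The authors sequenced low-input libraries on an Illumina platform in batches and pseudoaligned the reads with kallisto (version not given in the sources used here; the submitters' processing notes name mm10 and GRCm38). The deposited files hold estimated counts per transcript, not normalised, and TPM computed by the authors with kallisto, which are relative to transcript length and library total. For this report estimated counts were summed per gene with GENCODE vM21, rounded to whole numbers, and summed over the runs of a library; at least 98.9% of the counts of each run matched. Replicate libraries are separate samples by their titles, and where they do not come from separate mice the p-values measure the spread between samples only. Counting precision is not the limit for most members at the depths given in the report. It is a limit for members near the floor, such as Cox7a1 (0.0976 CPM in control 2) and Cox6a2 (0.0324 CPM in control 3). The members and the gene lists were chosen with earlier results of these data known.

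Genes with 10 or more counts in at least 6 libraries entered edgeR 4.0.16 (R 4.3.3), with TMM factors, robust quasi-likelihood tests, group and title series (TG or XC) as terms and Benjamini-Hochberg adjustment at 0.05. The series stands in for the sequencing batches, whose make-up the labels do not give. Comparisons of liver with control and undivided cells used 11 libraries, and those with spleen used 14. The low-input libraries gave CPM scaled by TMM. The oligo-dT library entered no test. Genes named in the text were, for each complex, the highest per length, the largest and the smallest change, the catalytic core subunits, and isoform pairs; others were added after their values were seen. Values of some genes that the rule covers are not reported here. Alternatives were DESeq2 1.42.0, other scalings, filters, models and libraries. The fit was also run on simulated counts that held no series difference. That run cannot speak to the dependence of the calls on the series term or on control 1. Words of 31 bases shared between transcripts of different genes marked uncertain members.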

Additional observations from a re-analysis of the deposited data

Results flagged for a closer look

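Ndufs1 differed in sign between the TG and XC series, in a search of the tested members for such differences. Both TG mid and late liver libraries lay below the TG control, by a mean of -0.078 (log2). All 3 XC mid and late liver libraries lay above the XC control mean, by 0.22. The TG mean rests on 1 control and is smaller than the SE of 0.14 in the main test. The series difference of Ndufs1 did not pass the interaction test that was run over all genes (adjusted p = 0.87, edgeR). The oligo-dT library, made from day 0 cells of the TG series by another method and used in no comparison, had 2.67% of its counts on the 13 mitochondrially encoded subunit genes, above the highest control (1.70%). The 81 nuclear members took 0.652% of its counts, below every control. No group held enough libraries for a test of single outlying libraries.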

How the results depend on the processing

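The direction of the members held in mid and late liver, and the number called did not. Called members in mid and late liver together against control were 65 with the series term, 14 without it and 0 in the XC series alone. For mid liver, 49 became 32 with library totals alone (31 higher, 1 lower), 1 without the series term, 18 with day 0 controls only and 0 in the XC series alone. For late liver, 62 became 37 with library totals alone and 6 without the series term. The causes were not tested. The XC series alone holds fewer libraries and also lacks control 1, and these were not separated. Without a filter on low counts, 4 members were called in early liver against control, 4 in late liver against undivided cells and 1 in early liver against early spleen, in place of 0. The median difference of the members in mid and late liver stayed above 0 under each of these settings, from 0.65 after the length trend was removed to 1.13 without the series term.

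Leaving out 1 library at a time gave 0 to 66 members for mid and late together, 0 to 34 for mid, 0 to 44 for late, 0 to 21 for early against control and 0 to 5 for liver against spleen at day 7. It gave 0 for late against mid, undivided against control, late against undivided, spleen early against control and liver mid against spleen mid. Ndufs1 changed sign with library totals alone, to -0.15. Other members also changed sign under some settings. Ndufa6 and Ndufa10 reached -0.13 and -0.02 at the lowest, and Atp5s reached 0.07 at the highest. For the 33 tested members named by rule, 624 values were compared over the settings, and members added later were not among them. Of the 624, 105 lost and 6 gained the threshold and 512 kept their side of it and their direction. No paired analysis was possible because replicate numbers were given in accession order and pair no samples. Alternatives with the liver early libraries left out, the length trend removed, the XC series alone and the series interaction were chosen after seeing the data.

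Groups of 1 to 3 libraries limit every comparison. The lone TG control limits those against controls. The tie of tissue to leukemia, and the day 0 origin of controls 1 and 2, limit those of liver with control. With 2 TG libraries against 1 control, within-series values carry no error of their own in TG. Shared sequence between members and pseudogenes limits the placing of some counts, and no count here measures protein, complex assembly or respiration.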
